A study of Homo sapiens with 6 samples.

Results

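STAT2, STAT3, IRF1, IRF3, IRF9, OAS1, OAS3, IFIT1 and ISG15 are a set of 9 genes of STAT, IRF and interferon signalling. They were taken by gene name from the 29435 rows of the deposited expression table, and each name matched 1 row. A row was tested if 3 or more of the 6 libraries reached 1 FPKM; 11427 rows did, among them 7 of the 9 genes, and IRF1 and IRF9 did not. The libraries came from cells labelled HepG2, a tumour-derived human liver line, which had been given 20 µM saikosaponin A (SsA, a plant saponin; 3 libraries) or DMSO, the solvent alone (3 libraries), for 4 h. No interferon or other cytokine was named among the treatments of either group, and both groups share the same culture medium. Whether replicates were separate cultures is not stated in the labels; p-values thus reflect the spread of these libraries alone, which may be technical.

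Type I interferon binds a receptor of IFNAR1 and IFNAR2, and the kinases JAK1 and TYK2 then phosphorylate STAT proteins, among them STAT2. With IRF9, STAT2 is part of the complex ISGF3, which binds the interferon-stimulated response element (ISRE) in the promoters of antiviral genes such as OAS1, OAS3, IFIT1 and ISG15. STAT3 answers to cytokines of the IL6 family, which in liver cells drive the acute phase response, and IRF3 starts interferon transcription after viral nucleic acid is sensed. STAT and IRF3 proteins are switched on by phosphorylation, which RNA levels do not show.

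Promoters of 8 of the 9 genes were held in RefSeq sequences of GRCh38.p14, as 250 bases before and 50 bases after the transcription start. Both strands were searched for the ISRE core, a pair of GAAA runs with 2 bases between them, and for TTCNNNGAA, the core of the gamma-activated site (GAS) bound by STAT dimers. ISG15, IFIT1 and OAS3 each held 2 ISRE matches, whereas 3.57% of all 35116 promoters of this length, and 2.60% of those of tested genes, held at least 1. OAS1, IRF1 and IRF9 each held a GAS match, found in 7.66% of all promoters and 5.97% of those of tested genes. The STAT2 and STAT3 windows held neither pattern. A match is only these letters, and shows no binding. The ISRE matches of the effector genes and the GAS match of IRF1 are printed 5′ to 3′ on the strand of the gene, with the matches in capitals. They are shown because ISG15 and IFIT1, which were higher after SsA, and OAS3, which was lower, all hold the ISRE pattern; OAS1, which was higher, has no such match in its window. The ISG15 window (chr1:1013359-1013424, plus strand) holds a pair of overlapping matches, and the IFIT1 window (chr10:89392482-89392554, plus strand) has its matches on the opposite strand. The OAS3 windows are chr12:112938306-112938365 and chr12:112938437-112938496, plus strand, and the IRF1 window is chr5:132490864-132490922, minus strand.
ISG15: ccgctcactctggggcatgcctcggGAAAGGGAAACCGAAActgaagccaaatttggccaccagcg
IFIT1: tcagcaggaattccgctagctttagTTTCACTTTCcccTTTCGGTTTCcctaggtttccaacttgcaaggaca
OAS3 far: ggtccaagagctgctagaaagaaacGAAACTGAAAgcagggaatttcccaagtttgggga
OAS3 near: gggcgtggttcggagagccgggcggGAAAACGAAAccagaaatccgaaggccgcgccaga
IRF1: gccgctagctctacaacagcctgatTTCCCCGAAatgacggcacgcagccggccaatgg

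Library totals ranged from 58955482 to 69567633 counts with SsA and from 57768359 to 74912492 with DMSO. SsA replicate 1 and DMSO replicate 3 stood apart, with mitochondrially encoded genes at 18.8% and 14.9% of their counts, against 7.62 and 8.28% in the other SsA libraries and 6.36 and 6.19% in the other DMSO libraries. Over protein-coding genes, fold changes fell with transcript length: of 10 bins by length, the shortest (207 to 1593 nt) had a median log2 fold change of 0.64. All 8 hepatocyte markers with a row, of 15 listed, were below 0.1 FPKM on average, with 7 to 25 summed counts per SsA library and 13 to 27 per DMSO library. No library held more than 8 counts of HNF4A, so the liver identity of the cells is not seen in these markers. Markers of keratinocytes and other epithelia had by far the highest sums of the marker lists, 657 to 826 FPKM with SsA and 538 to 718 FPKM with DMSO, with 3 of 6 genes averaging at least 1 FPKM. Of 6 fibroblast markers with a row, 4 did, at a sum of 29.1 to 35.6 FPKM with SsA and 34.4 to 45.5 FPKM with DMSO. Leukocyte, plasmacytoid dendritic cell and endothelial markers each summed to less than 1 FPKM in every library. The epithelial list mixes KRT5, KRT14, KRT17 and TP63 with EPCAM, CDH1, KRT8 and KRT18, and its sum does not tell these apart. Of its 6 genes with a row, 3 averaged below 0.1 FPKM. The part of these markers in the results was not tested.

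After SsA, the signalling genes STAT2 and STAT3 and the antiviral gene OAS3 were lower than in DMSO, and IRF3, OAS1, IFIT1 and ISG15 were higher. Of the 7 tested genes, 4 were higher and 3 lower at an adjusted p below 0.05 (quasi-likelihood test of edgeR, Benjamini-Hochberg over all tested rows). The same test called 25.9% of all tested rows higher and 27.9% lower, 53.8% in all. The changes were small, between 1.28-fold and 1.84-fold, and went both ways within the effector genes. On the deposited FPKM scale with limma, 0 of the 7 were higher and 3 were lower, beside 8.00% and 32.6% of all rows (0 were higher at an unadjusted p under 0.05, and DESeq2 called 4 higher); the median log2 change of all rows was -0.11 there and 0.03 in edgeR. Levels below are CPM, counts divided by library totals after TMM scaling. In CPM the groups did not overlap for 62.8% of all tested rows. Since these are bulk libraries, fewer cells expressing a gene and less RNA per cell cannot be told apart.

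Per length, the order of mean levels with SsA was STAT3 at 15.4 FPKM, IRF3 at 8.68 ± 1.11, ISG15 at 7.55 ± 2.60, OAS1 at 6.96 ± 0.464, OAS3 at 3.63 ± 0.228, STAT2 at 3.03 ± 0.317, IFIT1 at 2.74 ± 0.218, IRF1 at 0.755 ± 0.156 and IRF9 at 0.463 ± 0.210 FPKM (SD, n = 3). With DMSO it was STAT3 at 22.8 FPKM, IRF3 at 6.88 ± 1.66, OAS3 at 6.59 ± 0.271, OAS1 at 6.06 ± 0.416, ISG15 at 4.58 ± 1.57, STAT2 at 4.54 ± 0.621, IFIT1 at 2.40 ± 0.395, IRF1 at 1.15 ± 0.171 and IRF9 at 0.347 ± 0.134 FPKM (SD, n = 3). STAT3 stood above the rest in both groups. Some neighbours in the order differed by less than the larger SD of the pair: with SsA these were IRF3 and ISG15, ISG15 and OAS1, and STAT2 and IFIT1, and with DMSO IRF3 and OAS3, OAS1 and ISG15, and ISG15 and STAT2.

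**Figure D1:**
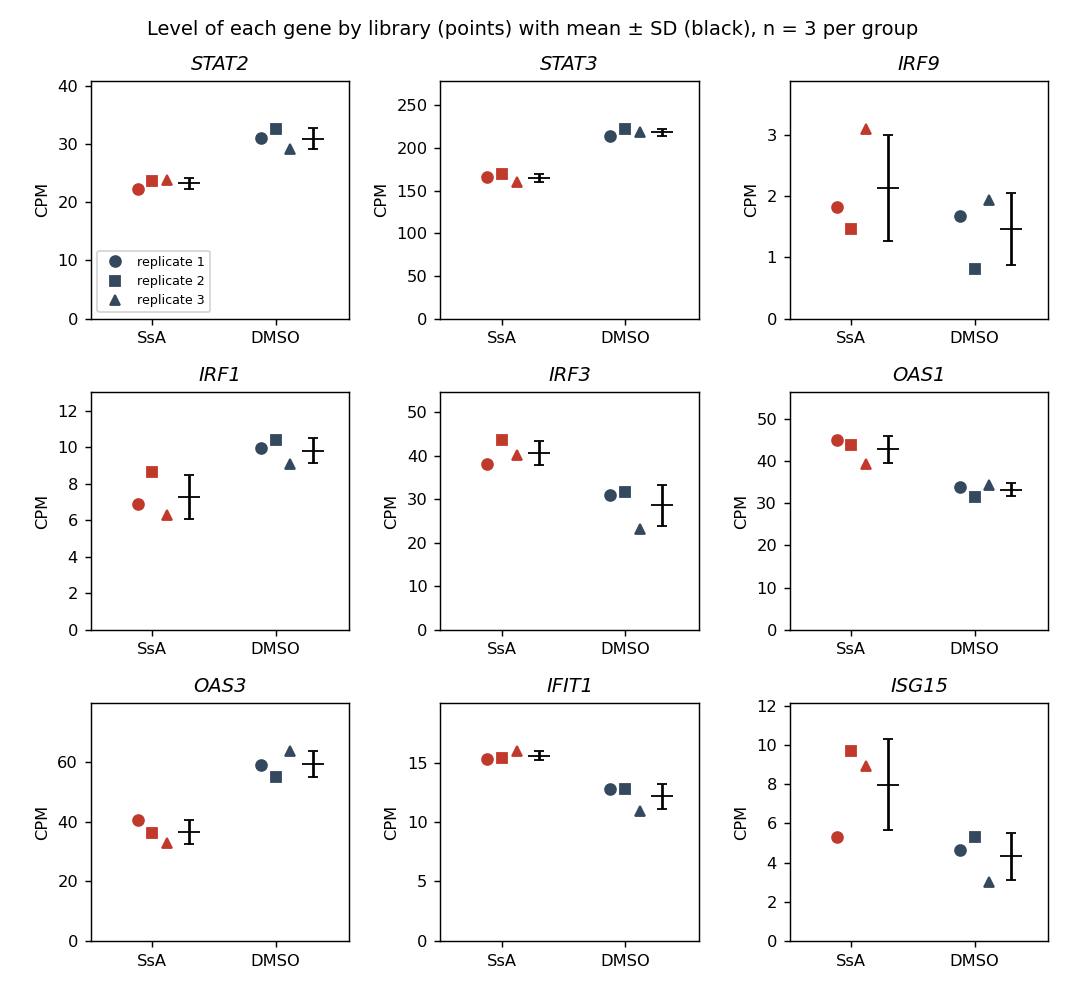
CPM of each of the 9 genes in every library, SsA left and DMSO right, with the symbol giving the replicate number and the black bar the mean ± SD of 3 libraries. STAT2, STAT3, IRF1 and OAS3 lie lower in every SsA library than in any DMSO library, IRF3, OAS1 and IFIT1 lie higher, and IRF9 and ISG15 overlap. Of all tested rows, 62.8% did not overlap between groups.

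STAT2, the STAT that binds IRF9 in ISGF3 (chr12:56341597-56360167, minus strand, GRCh38), had 22.2, 23.7 and 23.8 CPM with SsA, against 31.0, 32.7 and 29.1 CPM with DMSO. Every SsA library lay below every DMSO library. The means were 23.2 ± 0.895 and 30.9 ± 1.80 CPM (SD, n = 3 each), a log2 fold change of -0.41 ± 0.08 (SE, edgeR adjusted p = 0.00431), or 1.33-fold lower. Genes of its length bin, 3082 to 3642 nt, had a median log2 change of 0.02 and quartiles of -0.20 and 0.19, so STAT2 lay below the lower quartile. With fold changes corrected for length it was -0.45 (edgeR adjusted p = 0.00525).

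STAT3, the IL6 family STAT (chr17:42313324-42388442, minus strand), was the most abundant of the 9 genes per length, at 15.4 ± 1.10 FPKM with SsA and 22.8 ± 1.99 FPKM with DMSO. Its levels were 166, 170 and 160 CPM with SsA, against 214, 223 and 219 CPM with DMSO. The groups were far apart for their spread, at 165 ± 4.71 and 219 ± 4.41 CPM (SD, n = 3 each), with a log2 fold change of -0.40 ± 0.06 (SE, edgeR adjusted p = 0.00119). Its 5047 nt transcript falls in a length bin with a median of -0.32 and quartiles of -0.57 and -0.04, and STAT3 lay between these. The call was lost with length correction, at -0.15 (edgeR adjusted p = 0.0765).

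Within a library, the ratio of STAT3 to STAT2 counts was 7.47, 7.15 and 6.73 with SsA, against 6.91, 6.82 and 7.51 with DMSO. These overlap, and the exact two-sided permutation p was 1. It is one of 6 such ratios of gene pairs that were computed; no p among them was under 0.2 after Benjamini-Hochberg adjustment.

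IRF9, the DNA-binding subunit of ISGF3 (chr14:24161265-24166565, plus strand), had 95, 99 and 194 counts with SsA, against 130, 65 and 108 counts with DMSO. The groups overlap, and this was the lowest of the 9 genes per length, at 0.405 FPKM over all libraries. Without the expression filter it was higher by 0.60 ± 0.40 in log2 units (SE, not called, edgeR adjusted p = 0.358). With length correction and no filter it was 0.10 (edgeR adjusted p = 0.888). A readthrough gene on the same strand, AL136295.5, shares 1838 of its 3794 exonic bases, so reads from these could have been counted to either.

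IRF1, an interferon gamma target that itself activates transcription (chr5:132481609-132490773, minus strand), had 6.92, 8.63 and 6.29 CPM with SsA, against 9.95, 10.4 and 9.07 CPM with DMSO. The groups did not overlap, as was so for 62.8% of tested rows. It missed the expression filter, and without it, in a fit that called 20.7% of 29435 rows, it stood at -0.38 ± 0.16 in log2 units (SE, not called, edgeR adjusted p = 0.146). With length correction and no filter IRF1 was -0.16 (edgeR adjusted p = 0.542). C5orf56 on the opposite strand covers 1716 of its 7799 exonic bases, and no source used here says whether the counting used strand.

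IRF3, the factor that acts downstream of the RNA and DNA sensors (chr19:49659569-49665875, minus strand), had 38.1, 43.7 and 40.2 CPM with SsA, against 30.9, 31.7 and 23.1 CPM with DMSO. The lowest SsA library lay above the highest DMSO library, and DMSO replicate 3 was the lowest. The means were 40.7 ± 2.80 and 28.6 ± 4.77 CPM (SD, n = 3 each), a log2 fold change of 0.51 ± 0.13 (SE, edgeR adjusted p = 0.0150), above the upper quartile of 0.31 for its length bin. The call was lost with length correction (0.38, edgeR adjusted p = 0.0562), on the FPKM scale, and without SsA replicate 2 (edgeR adjusted p = 0.0562). BCL2L12 on the opposite strand shares 734 of its 3794 exonic bases.

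OAS1 and OAS3 make the oligoadenylates that switch on RNase L, and lie side by side on chromosome 12. OAS1 (chr12:112906783-112932142, plus strand) had 45.0, 43.9 and 39.2 CPM with SsA, against 33.9, 31.5 and 34.3 CPM with DMSO. OAS3 (chr12:112938444-112968054, plus strand) had 40.8, 36.4 and 32.9 CPM with SsA, against 59.2, 55.1 and 63.9 CPM with DMSO. The neighbours moved in opposite directions, and neither overlapped between groups.

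OAS1 was 1.29-fold higher, at a log2 fold change of 0.36 ± 0.08 (SE, edgeR adjusted p = 0.00806). OAS3 was 1.62-fold lower, at -0.70 ± 0.10 (SE, edgeR adjusted p = 0.00148), the largest fall of the 7. Each lay between the quartiles of its length bin, since OAS1 has 2416 nt and OAS3 6719 nt. With length correction both calls were lost, at 0.11 (edgeR adjusted p = 0.366) and -0.24 (edgeR adjusted p = 0.0703). Counts of OAS1 over OAS3 within a library were 1.10, 1.20 and 1.19 with SsA, against 0.572, 0.571 and 0.537 with DMSO. The ratio differed by 1.06 in log2 units, which combines the rise of one gene and the fall of the other (exact two-sided permutation p = 0.1, the smallest that 3 against 3 libraries can give).

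IFIT1, which binds viral RNA that lacks a host cap (chr10:89392546-89406487, plus strand), had 15.3, 15.4 and 16.0 CPM with SsA, against 12.8, 12.7 and 11.0 CPM with DMSO. The SsA libraries lay close together and above all DMSO libraries. It was 1.28-fold higher, or 0.36 ± 0.10 in log2 units (SE, edgeR adjusted p = 0.0222), above the upper quartile of 0.05 for genes of its length, and 0.55 ± 0.11 with length correction (edgeR adjusted p = 0.00877). The call was lost on the FPKM scale (0.14) and without SsA replicate 2 or 3 or DMSO replicate 2 or 3, at edgeR adjusted p-values of 0.0658, 0.0733, 0.0508 and 0.0554. Its relatives IFIT2 and IFIT3 were set against it within libraries. IFIT1 over IFIT3 was 1.44, 1.49 and 1.44 with SsA, against 1.10, 1.03 and 0.921 with DMSO (exact two-sided permutation p = 0.1). IFIT1 over IFIT2 was 1.34, 1.38 and 1.10 with SsA, against 0.740, 1.01 and 0.608 with DMSO (exact two-sided permutation p = 0.1). IFIT2 and IFIT3 stood at -0.37 and -0.16 in log2 units, not called (edgeR adjusted p = 0.112 and 0.214). With length correction IFIT3 was called lower, at -0.39 (edgeR adjusted p = 0.0258), and IFIT2 was not called (-0.31).

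ISG15, a ubiquitin-like protein joined to other proteins after interferon (chr1:1001138-1014540, plus strand), had 278, 658 and 559 counts with SsA, against 362, 429 and 168 counts with DMSO. As CPM these were 5.33, 9.71 and 8.93 with SsA, against 4.65, 5.33 and 3.00 with DMSO. The lowest SsA library and the highest DMSO library met, and SsA replicate 1 and DMSO replicate 3, the libraries of high mitochondrial share, were each the lowest of their group. It was 1.84-fold higher, or 0.88 ± 0.30 in log2 units (SE, edgeR adjusted p = 0.0409), the largest of the 7 and the least precise.

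At 787 nt ISG15 has the shortest transcript of the 9, and with length correction it stood at 0.080 ± 0.21 in log2 units (edgeR adjusted p = 0.807). The call was also lost on the FPKM scale (0.61) and without SsA replicate 2 or 3 or DMSO replicate 1 or 3, at edgeR adjusted p-values of 0.131, 0.117, 0.0864 and 0.0850. When SsA replicate 1 and DMSO replicate 3 were both left out, ISG15 was higher by 0.87 in log2 units (edgeR adjusted p = 0.00105), and IRF3 0.40 (edgeR adjusted p = 7.94e-04), in a fit that called 67.8% of all rows. The other tested genes were also called in that fit, at log2 fold changes of -0.45 for STAT2, -0.43 for STAT3, 0.32 for OAS1, -0.75 for OAS3 and 0.27 for IFIT1.

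**Figure D2:**
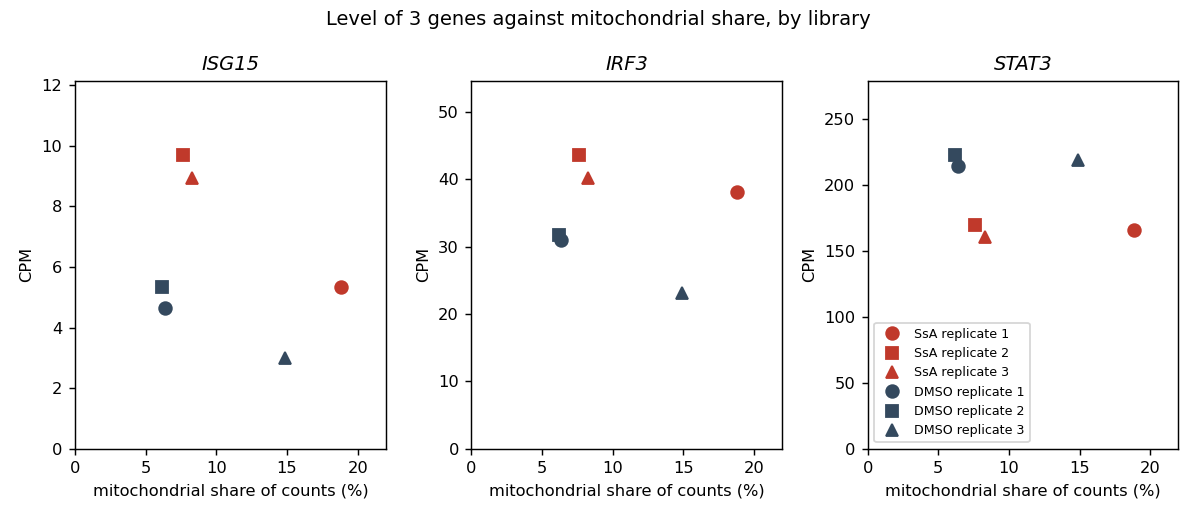
CPM of ISG15, IRF3 and STAT3 in each library against the share of its counts from mitochondrially encoded genes, in percent, with SsA in red and DMSO in dark blue. ISG15 and IRF3 are lowest in SsA replicate 1 (18.8%) and DMSO replicate 3 (14.9%) of their groups, and STAT3 is not.

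**Figure D3:**
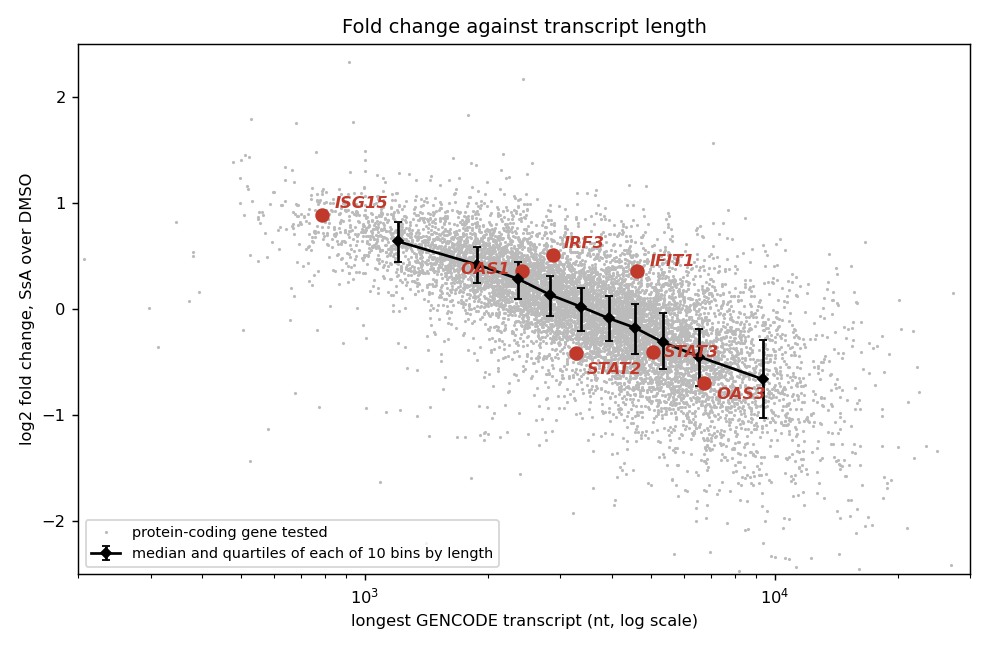
Log2 fold change of SsA over DMSO against the longest GENCODE transcript (nt, log scale) for tested protein-coding genes (grey), with the median and quartiles of each of 10 bins by length (black) and the 7 tested genes named. STAT2 lies below the quartiles of its bin and IRF3, IFIT1 and ISG15 above theirs; 14 genes fall outside the vertical range and 1 outside the horizontal.

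With length correction, 1 of the 7 genes was higher (IFIT1) and 1 lower (STAT2), beside 14.4% and 16.7% of all rows. When the length was the one implied by each gene's count and FPKM, 3 were higher (IRF3, OAS1 and IFIT1) and 2 lower (STAT2 and OAS3), beside 18.2% and 21.0% of all rows. STAT2 and IFIT1 passed under both lengths. The implied length was above the longest transcript for each of the 7, such as 7145 against 3278 nt for STAT2. It is thus not the length of an annotated transcript.

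**Figure D4:**
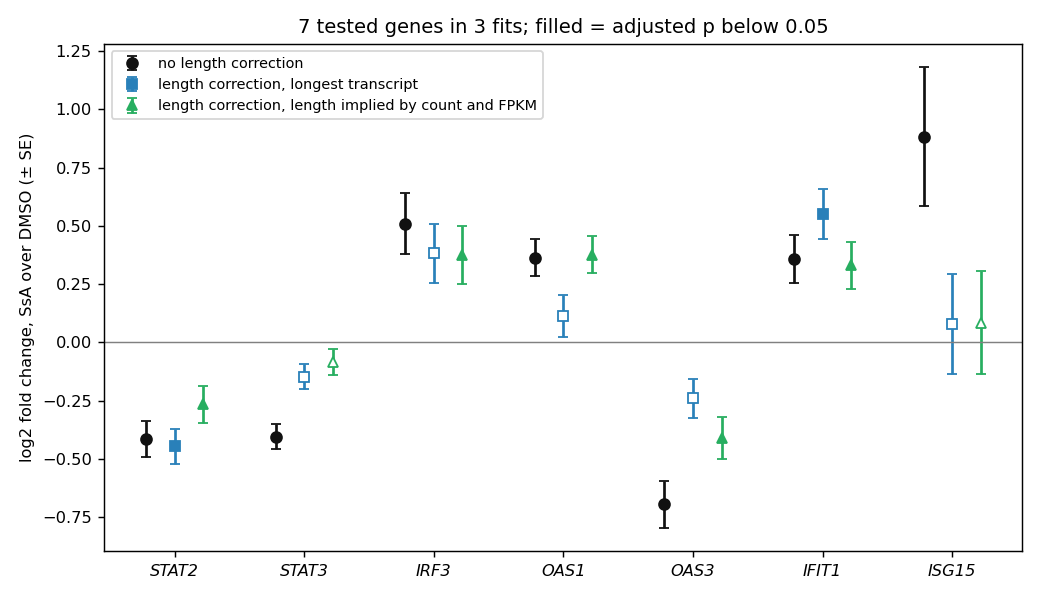
Log2 fold change (± SE) of the 7 tested genes without length correction, with correction for the longest transcript, and with correction for the length implied by count and FPKM, with filled symbols for an adjusted p below 0.05. STAT2 is at -0.41 and -0.45 in the first pair of fits, and ISG15 goes to 0.080 and 0.084 in the corrected fits.

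Other genes of the pathway moved in both directions as well. Of 152 listed pathway genes with a row beside the 9, 101 were tested: 23 passed upward and 30 downward; their median on the log2 scale was -0.083 (all rows, 0.03). With length correction 11 were higher and 14 lower, at a median of 0.01. Of all tested rows, 25.9% were higher and 27.9% lower, and with length correction 14.4% and 16.7%. Under limma on FPKM the shares of all rows were 8.00% and 32.6%. The same shares of all rows apply to each list below. Of the interferon ligands, 3 had a row and 0 of these passed the filter. IFNB1 had 0 counts in every SsA library and 0, 4 and 0 in the DMSO libraries. IFNA8 had 0, 0 and 7 counts with SsA and 0 in every DMSO library. IFNE had counts in every library, 59, 22 and 46 with SsA and 37, 54 and 13 with DMSO.

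Among receptors, 2 of 9 tested were higher and 5 lower; with length correction all 5 downward calls were lost and 1 gene was higher. IFNAR1 averaged 71.8 ± 1.22 CPM with SsA and 83.2 ± 2.91 CPM with DMSO (SD, n = 3 each; log2 fold change -0.21, edgeR adjusted p = 0.0189), but 0.18 with length correction (edgeR adjusted p = 0.0354) and -0.0081 with the implied length (edgeR adjusted p = 0.919). LIFR, the leukaemia inhibitory factor receptor, and IL6ST, the shared IL6 family subunit, fell by 0.56 and 0.48 on the log2 scale (edgeR adjusted p = 3.09e-04 and 0.0043) and were 0.11 and 0.13 with length correction. The kinases JAK1 and TYK2 fell by 0.25 and 0.26 (edgeR adjusted p = 0.0279 and 0.0248), and neither passed with correction for the longest transcript. With the implied length, 14532 nt against 5047 nt for its longest transcript, JAK1 was called in the opposite direction, at 0.26 (edgeR adjusted p = 0.0131).

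Of 9 sensing genes tested, 1 was higher and 2 lower, MAVS and TRAF3. With length correction the upward call was lost, and so was that of TRAF3 (-0.33, edgeR adjusted p = 0.114). The 2 lower in that fit were MAVS and TANK. TANK was at -0.31 there (edgeR adjusted p = 0.0344), against 0.01 and not called without correction. MAVS, the mitochondrial adaptor of the RNA sensors, averaged 41.4 ± 3.70 CPM with SsA and 105 ± 3.23 CPM with DMSO (SD, n = 3 each), a log2 fold change of -1.34 (edgeR adjusted p = 7.92e-05) and -0.59 with length correction (edgeR adjusted p = 0.00256). Of 17 negative regulators, 0 were higher and 8 lower by edgeR; upward at an unadjusted p under 0.05 there were 0 in edgeR and 1 in DESeq2, and neither DESeq2 nor limma called any higher. With length correction 1 was higher and 5 lower, and with the mitochondrial share as a covariate 1 was higher and 12 lower. The covariate fit called more of all rows too, 36.2% higher and 35.4% lower. PIAS2, an inhibitor of STAT signalling, was the one higher with length correction, at 0.51 (edgeR adjusted p = 0.00421). Among those lower were SOCS7 (-1.32, edgeR adjusted p = 1.02e-04) and PTPN1, a phosphatase of JAK2 and TYK2 (-0.63, edgeR adjusted p = 3.69e-04), both still called with length correction. SOCS3, a feedback target of STAT3, had a log2 fold change of 0.23 (edgeR adjusted p = 0.121).

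Of 32 other interferon-stimulated genes tested, 7 were higher and 9 lower; with length correction 1 was higher and 4 lower, and under limma on FPKM 3 were higher and 12 lower. RNF213, a large ubiquitin ligase, averaged 63.1 ± 3.87 CPM with SsA and 264 ± 5.04 CPM with DMSO, 4.18-fold lower (edgeR adjusted p = 3.94e-05), and was -1.02 with length correction (edgeR adjusted p = 1.91e-04). The RNA editor ADAR fell by 0.91 (edgeR adjusted p = 4.64e-04), and by 0.42 with length correction (edgeR adjusted p = 0.00776). Among the 7 that were higher were BST2 (0.83, edgeR adjusted p = 0.00476) and IFITM1 (0.65, edgeR adjusted p = 0.00136). With length correction neither was called, at 0.14 and -0.11 (edgeR adjusted p = 0.257 and 0.651). The 51 genes of the list with a row summed to 742 to 760 FPKM with SsA and 580 to 627 FPKM with DMSO. Some strongly interferon-responsive genes had few counts or none in both groups: OAS2 had 0, 4 and 0 counts with SsA and 0 in every DMSO library, and RSAD2 had 0 in every SsA library and 11, 0 and 0 with DMSO.

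Of 12 genes of interferon gamma response and antigen presentation, 8 were higher and 0 lower by edgeR, with a median of 0.61. With length correction 5 were higher, at a median of 0.27. Among those 5, TAP2 was at 0.31 (edgeR adjusted p = 0.0243), against -0.038 and not called without correction. Under limma on FPKM 2 of the 12 were higher, at a median of 0.43. At an unadjusted p under 0.05, 0 of these 12 were lower in edgeR, DESeq2 or limma. Another 10 genes of the list had a row but missed the filter. Without the filter, in a fit that called 20.7% of 29435 rows, NLRC5 (-0.64, edgeR adjusted p = 0.0093) and CIITA (-1.80, edgeR adjusted p = 0.00668) were lower. HLA-F was higher in that fit (1.42, edgeR adjusted p = 0.00371). B2M, the light chain of class I molecules, averaged 668 ± 9.83 CPM with SsA and 376 ± 7.03 CPM with DMSO, 1.77-fold higher (edgeR adjusted p = 1.2e-04). Of 16 STAT3 target genes 5 were higher and 3 lower, at a median of 0.01; with length correction 3 were higher and 2 lower, and under limma 4 higher and 6 lower. They include FOS (log2 fold change 4.18, edgeR adjusted p = 3.94e-05), which many other signals also raise.

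**Figure D5:**
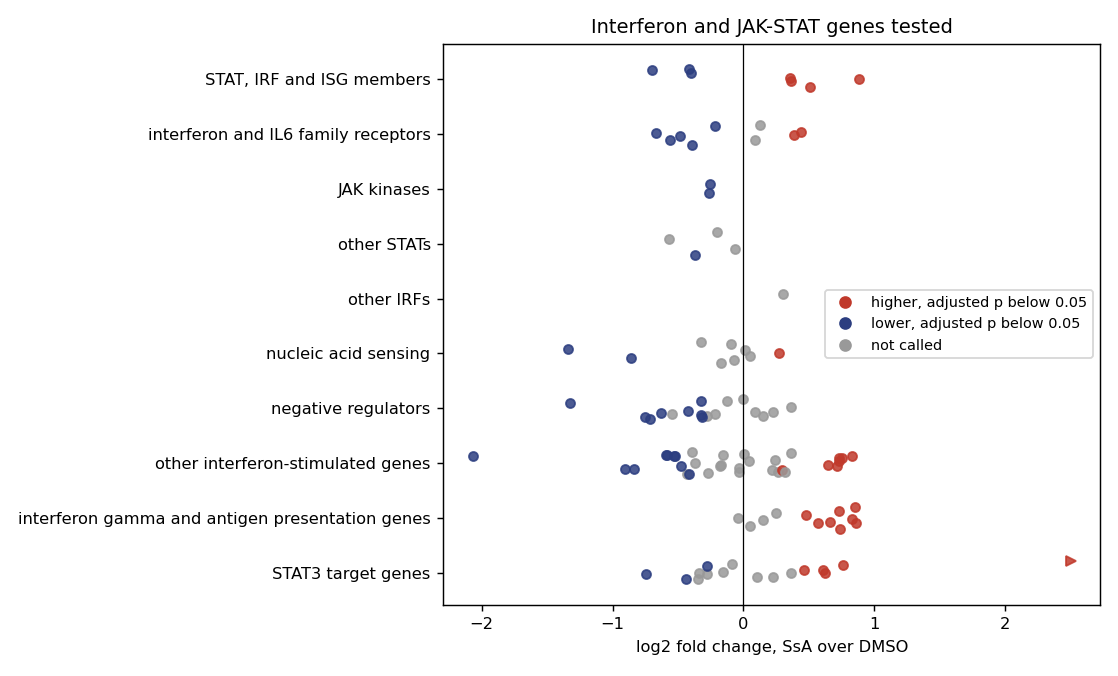
Log2 fold change of SsA over DMSO of every tested gene in each list, with red for higher, blue for lower and grey for not called (edgeR adjusted p of 0.05). FOS, at 4.18, is drawn as an arrow at the right edge; antigen presentation genes have 8 red points and no blue, and RNF213 at -2.07 is the lowest.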

How the data were processed

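RNA was extracted with Trizol and poly(A)-selected for dUTP-marked libraries, per the labels' protocols. The tools named were HISAT2 2.0.4, StringTie 1.3.4d and cutadapt 1.9, with the build GRCh38, per the submitters' processing notes. No source used here gives the counting step or its strand setting. For each gene and library the deposited table holds an integer count and its FPKM, per the file headers. The counts were taken as not normalized by the authors, and the deposited FPKM was scaled by the authors for length and depth. Columns marked SA were read as SsA.

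The 11427 rows that reached 1 FPKM in 3 or more libraries were tested with edgeR 4.0.16 (quasi-likelihood, TMM scaling, R 4.3.3), with Benjamini-Hochberg adjustment over those rows. Standard errors were derived from the fold change and its F statistic. The coefficient of variation between libraries was 15.3%. Alternatives used limma 3.58.1 on log2(FPKM + 1), which understates changes of low genes, DESeq2 1.42.0, other filters and scalings, a replicate block, leaving out each library, the mitochondrial share, and a lowess correction of each library for the longest GENCODE 29 transcript, which 99.6% of tested rows had. The test scripts were tested on simulated data.

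The 9 genes and the lists were chosen with earlier results of these data known. The genes named were all 9, and per list up to 4 called and 2 other genes of smallest p, plus JAK1, JAK2, TYK2, IFNAR1, IFNAR2, IL6ST, SOCS3, IRF7 and PTPN11; of these the text gives a selection, and some are not reported here. IFIT2, IFIT3, BST2, TANK, TAP2 and genes of few counts were named after their values were seen.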

Additional observations from a re-analysis of the deposited data

How the results depend on the processing

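The counts of all genes were moved over 1.5-fold by limma on log2(FPKM + 1) and log2(FPKM + 0.1) (914 and 886 higher), by a mean FPKM of at least 5 (1666 higher, 1762 lower of 6197 rows, or 26.9% and 28.4%, shares close to those without this limit) and by length correction (1651 higher, 1906 lower). Of the 7 genes, 0 were higher under either limma scale, 2 with a mean FPKM of at least 5, 1 with length correction and 2 with it and the mitochondrial share, and 1 was lower with length correction. Of all rows, 8.00% and 7.75% were higher on the limma scales. With length correction 14.4% were higher and 16.7% lower, and with it and the mitochondrial share 26.9% were higher. Leaving out a library gave 1 to 4 of the 7 higher, beside 17.5% to 27.6% of all rows. Pathway genes higher were 10 under each limma scale, 14 at FPKM of at least 5, 11 with length correction and 12 with the implied length, and 14 to 23 without a library; lower, 14 and 17. Annotated terms had 11 higher under limma, 16 at FPKM of at least 5, 15 with length correction and 15 to 24 without a library; lower, 23 with length correction and 26 with implied length. The pathway median was -0.21 and -0.25 under limma and -0.19 at FPKM of at least 5.

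STAT2 held in all alternatives with a value (-0.56 to -0.26). Calls lost were STAT3 with either length correction (-0.15, -0.084), OAS3 with length correction (-0.24), OAS1 under limma (0.17, 0.20), with length correction (0.11) and with the mitochondrial share added (0.077), IRF3 under limma (0.32, 0.36) and length correction (0.38), IFIT1 under limma (0.14, 0.19), and ISG15 under limma (0.61, 0.71), at FPKM of at least 5 (0.77), with length correction (0.080), with the share added (0.19) and with implied length (0.084). Without a library, IRF3 ranged from 0.36 to 0.58, IFIT1 from 0.27 to 0.39 and ISG15 from 0.66 to 1.10. The cause was not tested. The length corrections without filter, with the share and with the implied length were chosen after seeing the data. A mean FPKM of at least 5 leaves out STAT2 and IFIT1.

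Deviations of log2 CPM from the group mean had correlations of -0.34, 0.29 and -0.35 between same-numbered libraries. SsA replicate 1 and DMSO replicate 3, both of high mitochondrial share, had 0.55. With these 2 libraries under unlike numbers, the correlations cannot tell whether the numbers pair the libraries. With a replicate block 2 of the 7 were higher, and IFIT1 (0.36) and ISG15 (0.88) lost their call. That fit called 18.1% of all rows higher and 22.2% lower.

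Other named genes reversed with length correction, with the share added, or with implied length: LIFR 0.11, 0.13; IL6ST 0.13, 0.10; IFNAR1 0.18, 0.18; JAK1 0.0062 and implied 0.26; STAT5B 0.061, 0.11; PTPN11 0.067, 0.10; PIAS1 0.011; PIAS2 0.51, 0.52 and 0.43; IFITM1 -0.11, -0.23 and -0.12; IFNGR1 -0.095, -0.070 and -0.092, and under limma -0.033 and -0.039; PARP9 0.030; SOCS3 implied -0.093; with the share only, IRF2 -0.15, SHISA5 -0.013 and PIM2 -0.077. IFNAR2 was -0.061 and -0.072 under limma and -0.039 without the high-mitochondrial pair of libraries, and WARS1 -0.012 under both limma scales. Genes with a few counts, such as OAS2 and RSAD2, missed the filter, and a difference in them was not detectable at this depth.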

Other observations

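Terms of the deposited annotation hold these genes beside others. Of 32 tested genes of the GO type I interferon signalling term, 16 passed upward and 7 downward, with a log2 median of 0.30, and with length correction 6 were higher and 3 lower at a median of 0.03; 8 of the 9 genes belong to that term. Of 65 tested genes of the KEGG Jak-STAT pathway, 7 were higher and 32 lower at a median of -0.26, and with length correction 3 and 13 at -0.07. For the interferon gamma term the counts were 11 higher and 8 lower of 32. Of all tested rows, 25.9% were higher and 27.9% lower, and with length correction 14.4% and 16.7%.

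Over the 6 libraries the log2 CPM of OAS1 was most like that of HMGN2P3 (Pearson r 0.997), GSTT2 (0.995) and HMGN2P5 (0.989), and 172 genes had an r over 0.95. That of STAT3 was most like DUSP16, MPRIP and ATP9A (r 0.999 each), and 1534 genes had an r over 0.95. The 6 libraries are 3 of each treatment, and any gene that differs between the groups shares that difference, so these values only describe the likeness.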
